A study of Mus musculus with 4 samples.

Results

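The genes described here encode the NF-kB subunits (Nfkb1, Nfkb2, Rel, Rela and Relb) and 2 of their inhibitors (Nfkbia and Nfkbib). They were chosen by name: every probe set whose only gene symbol was one of these 7 was taken, which gave 9 of the 12488 probe sets of the array, for 6 genes. No probe set was matched to Nfkb1 in the annotation used here, so its values are not analysed here. Expression was measured in total RNA of the hippocampal dentate gyrus, a field made mostly of granule cells. The mice were young C57BL/6J males that an experimenter had handled and that had no other treatment. The 4 samples are controls taken 1, 2, 4 and 6 h after other, experimental mice had their last shock, with 1 sample at each hour and no shocked sample analysed here. How many mice stand behind a sample is not given in the sources used here.

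NF-kB is a family of transcription factors that act as pairs of subunits. In resting cells most pairs are held in the cytoplasm by inhibitors of the IkB family, or by the uncleaved precursors of the Nfkb1 and Nfkb2 products. A signal from a cytokine or Toll-like receptor activates the IkB kinase, the inhibitor is marked and degraded, and the freed pair enters the nucleus. Several genes of the family, Nfkbia first among them, are themselves NF-kB targets, so that an active pathway refills its own inhibitor. In the brain the family is found in neurons, glia and vessels, and work on memory has studied it at hippocampal synapses.

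RefSeq promoter windows (build GRCm38.p6) were found for 5 of the 7 genes, Nfkb2, Nfkbia, Nfkbib, Rel and Rela, with 3 windows for Nfkb2. The 250 bases before each start site were searched on both strands for the kB consensus, the 10-base motif that NF-kB pairs bind, and overlapping matches were joined. Windows of 3 genes held a match, those of Nfkbia, Rel and Nfkb2, and no match lay in the windows of Rela and Nfkbib. Over all 32851 windows of this length, 7.25% held a match. The windows of Nfkbia (chr12:55492648-55492897, minus strand) and Rel (chr11:23770970-23771219, minus strand) are shown because they place the motif beside an inhibitor and a subunit, 5′ to 3′ with the kB match in capitals and the start site just after the last base:
Nfkbia: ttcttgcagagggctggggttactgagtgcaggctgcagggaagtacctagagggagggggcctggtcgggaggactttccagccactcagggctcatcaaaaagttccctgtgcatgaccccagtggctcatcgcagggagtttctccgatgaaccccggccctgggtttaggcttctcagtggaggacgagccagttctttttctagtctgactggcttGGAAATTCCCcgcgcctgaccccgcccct
Rel: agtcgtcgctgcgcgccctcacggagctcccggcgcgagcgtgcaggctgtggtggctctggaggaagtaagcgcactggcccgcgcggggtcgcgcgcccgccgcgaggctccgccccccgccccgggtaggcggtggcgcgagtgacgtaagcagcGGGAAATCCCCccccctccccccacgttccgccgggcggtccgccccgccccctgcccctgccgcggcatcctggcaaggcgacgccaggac

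The match in Nfkbia lay 29 to 20 bases before the start and that in Rel 92 to 82 bases before it. The first Nfkb2 window held 2 matches close to the start site, and the bases around them are shown for comparison (plus strand, chr19:46304689-46304717 and chr19:46304716-46304736):
Nfkb2 upstream match: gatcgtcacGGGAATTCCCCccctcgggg
Nfkb2 match next to the start: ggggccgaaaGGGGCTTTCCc

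The windows of the 5 genes also differed in GC content. GC content was 77.6% in Rel, 70.4% in Rela, 59.2% in Nfkbia and 58% in Nfkbib, and from 64.4% to 72% in the 3 Nfkb2 windows, against a median of 52.4% over all windows. The letters TATAAA were in none of the 7 windows of these genes, and 12.4% of all windows held them on either strand. The GC box GGGCGG, bound by Sp1-type factors, was in a window of 4 of the 5 genes and in 32.7% of all windows. With overlapping matches counted once, there were 4 in Rel, 2 in Rela, 1 in Nfkbia and none in Nfkbib. These matches describe the letters of the windows and are not measured binding sites.

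The arrays as deposited shared a trimmed mean but not a shape. Their mean intensity without the top and bottom 2% of probe sets was 500.3 on each, while the median ran from 184.8 to 187.3 at 1, 2 and 6 h and reached 212.8 at 4 h. How the arrays were scaled is not stated, so the equal mean does not show equal brightness. The 4 h array also had the fewest values under the floor of 38.3 used here, 17.3% against 20.6% to 21.5% on the others. All 5 granule cell markers with a probe set were past the filter used below, among them Prox1 (184.2, 153.5, 182 and 249.1 at 1, 2, 4 and 6 h) and Calb1 (2542, 3026, 2506 and 2453). So were 5 of 7 interneuron, 7 of 7 astrocyte, 6 of 7 oligodendrocyte, 8 of 12 microglia and 4 of 10 endothelial and mural cell markers with a probe set, and a level given here belongs to the whole tissue. In such bulk RNA, fewer cells of a type and less RNA per cell cannot be told apart.

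Of the 9 probe sets, 6 were past the filter on mean log2 intensity, which stands for an intensity of 120, and they cover 5 genes: Rela, Relb, Nfkb2, Nfkbia and Nfkbib. The other 3 were the only Rel probe set and the second ones of Rela and Relb. In the maker's naming, the letter f marks a probe set whose probes several similar sequences share, and i and r mark sets with missing probes or relaxed design rules. Of the other genes named below, Tnfrsf1a, Tradd and Junb were read first by r sets, and Ikbkg, Slc35e1 and Pick1 by f sets. Further probe sets of Junb, Fth1 and Prkcz carry i or r as well. Intensities below follow the order 1, 2, 4 and 6 h.

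**Figure D1:**
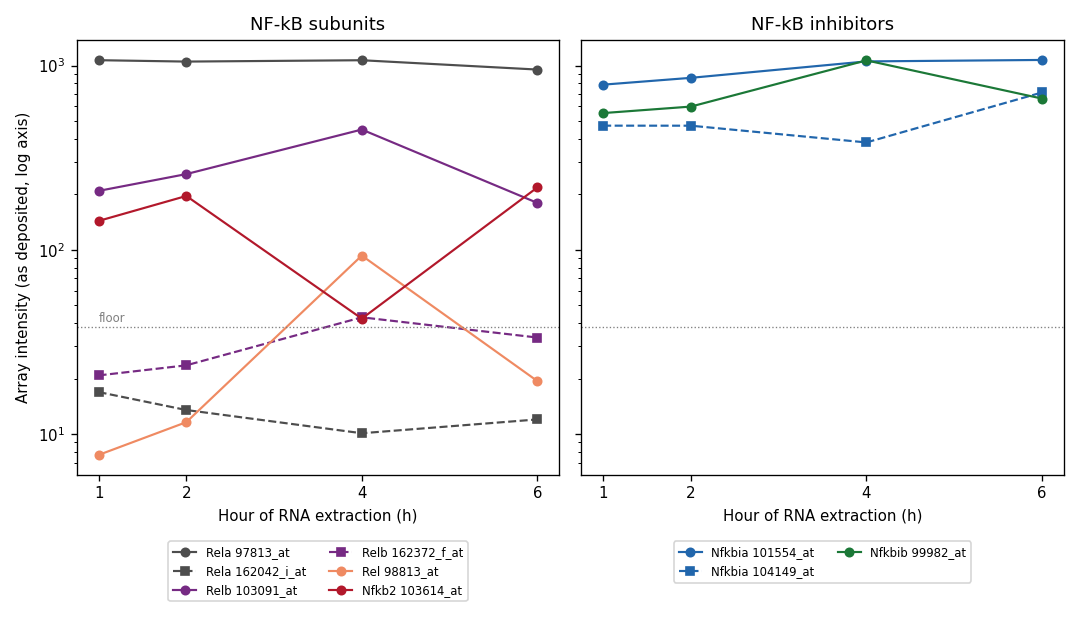
Deposited intensity (log axis) of all 9 probe sets against the hour of RNA extraction, with 1 array at each hour, subunits on the left and inhibitors on the right; the dotted line is the floor of 38.3. Rela 97813_at is flat, Relb and Nfkbib peak at 4 h, Nfkb2 dips at 4 h, and the 2 Nfkbia probe sets part at 4 h.

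Rela encodes p65, the subunit that carries the strong activation domain of the classical NF-kB pair. Its probe set 97813_at read 1068.8, 1050.4, 1068.2 and 950.7, a mean of 1034.5 ± 56.5 (SD, n = 4). The first 3 arrays lay within 1.02-fold of each other and the 6 h array was lowest. The whole span of 1.12-fold was among the narrowest on the array: 96.6% of the 6500 tested probe sets spanned more, and their median span was 1.53-fold. With each array scaled to a common median, 4 h became the lowest hour, at 936.2 against 959.5 at 6 h. The second Rela probe set, 162042_i_at, read 16.9, 13.5, 10.1 and 12. All 4 values were under the floor, so no order can be read from them.

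Relb encodes the subunit that pairs with p52 in the slower, non-canonical pathway. Probe set 103091_at read 208.7, 257.5, 449.3 and 179.7. The 4 h array was highest and stood 2.11-fold above the mean log2 of the other 3, and the 6 h array was lowest. The span was 2.50-fold, and 11.9% of tested probe sets spanned more. Without the 4 h array the span was 1.43-fold. The second Relb probe set, 162372_f_at, was also highest at 4 h, at 20.8, 23.6, 43 and 33.4. Only that 4 h value lay above the floor, and under quantile normalisation all 4 were at the floor, so that the order was lost.

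Nfkb2 encodes p100, which holds Relb pairs back through its own IkB-like end and is cut to p52 when the non-canonical pathway is active. Probe set 103614_at read 143.4, 195.9, 42.3 and 217.8. Here the 4 h array was lowest, just above the floor, and the 6 h array highest. The span of 5.15-fold was the widest of the 6 tested probe sets, and 2.42% of all tested probe sets spanned more. Without the 4 h array it was 1.52-fold. The size of the span moved with the treatment of low values: it was 2.36 log2 as used here, 1.57 when the 30th percentile served as the floor and 1.75 when a constant of 32 was added instead. The mean log2 was 6.99, against 6.91 at the filter.

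Rel encodes c-Rel, a subunit best known from lymphocytes. Probe set 98813_at read 7.7, 11.6, 93 and 19.4, so it was above the floor on the 4 h array alone. That value was 2.43-fold over the floor, and so at least that far above the other hours, which lay under it. The mean was under the filter and no trend was tested.

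Nfkbia encodes IkB alpha, the inhibitor that is degraded and made again within one round of signalling. Its brighter probe set, 101554_at, read 787.2, 857.3, 1052.6 and 1072, higher at each step, with a mean of 942.3 ± 142 (SD, n = 4). The span was 1.36-fold, less than that of 69.6% of tested probe sets. Values that went up at every step were found in 2.6% of tested probe sets. Under quantile normalisation the order changed, with 1089.8 at 4 h and 1050.8 at 6 h. The other probe set, 104149_at, read 471.6, 471.4, 382.4 and 713.8. It shared the highest value at 6 h but was lowest at 4 h, where 101554_at stood 1.17-fold above the other hours. The 2 probe sets therefore gave opposite sides at 4 h and the same side at 6 h, at 1.20-fold and 1.62-fold above the other hours.

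Nfkbib encodes IkB beta, an inhibitor that is degraded more slowly and persistently than IkB alpha. Probe set 99982_at read 551.9, 598.6, 1066.4 and 661.7, with a mean of 719.7 ± 236 (SD, n = 4). The 4 h array was highest, 1.77-fold above the other hours, and the other 3 lay within 1.20-fold of each other. The full span was 1.93-fold, and 24% of tested probe sets spanned more.

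Counted over the 6 tested probe sets, 2 spanned over 2-fold (Relb and Nfkb2), where 21.6% of all tested probe sets did. Their median span was 1.90-fold against 1.53-fold over all. The highest value was at 4 h for 2 of the 6 (Relb and Nfkbib), against 32.9% of all, and the lowest was at 4 h for 2 of the 6 (Nfkb2 and Nfkbia 104149_at), against 28.4%. Without the 4 h array, 0 of the 6 spanned over 2-fold, where 12.1% of all did. With 6 probe sets, 1 more or fewer would bring each of these counts to either side of the share over the whole array. Each hour has 1 array, so no difference between hours has a replicate error.

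The 4 h array kept its side under other scalings for the probe sets with the widest spans. Its fold over the other hours was 2.11 for Relb as deposited, 1.84 with array median scaling and 1.96 with quantile normalisation. For Nfkbib it was 1.77, 1.55 and 1.83. Nfkb2 was at 0.231 of the other hours as deposited, and its 4 h value was at the floor under both scalings. Nfkbia 101554_at kept a value above the other hours under all 3 settings, from 0.03 to 0.29 log2, and Nfkbia 104149_at one below them, from −0.50 to −0.70. Rela changed side, from 0.06 as deposited to −0.13 with median scaling. Median scaling placed the median of all tested probe sets at −0.15 log2 at 4 h, where it was 0.04 as deposited.

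**Figure D2:**
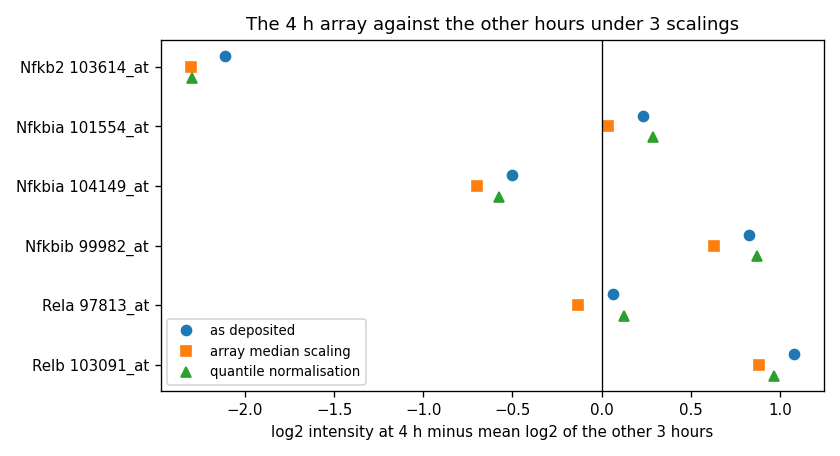
Log2 intensity at 4 h minus the mean log2 of the other 3 hours for the 6 tested probe sets, as deposited (circles), with array median scaling (squares) and with quantile normalisation (triangles); the 4 h value of Nfkb2 is at the floor under both scalings. Relb and Nfkbib lie right of 0 and Nfkb2 and Nfkbia 104149_at left of it under all 3, and Rela crosses it.

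Marker sums of other tissue parts and cell types were highest at different hours. The summed intensity of the 5 choroid plexus markers with a probe set was 2127, 4836, 5816 and 2992, highest at 4 h. Ttr, a carrier made by choroid plexus epithelium, read 81.3, 233.6, 2408 and 191.2. Igf2, the brightest of the 5, was instead highest at 2 h (1849.1, 4402.2, 2954.6 and 2520.8). Kl and Folr1 were highest at 4 h. None of the 5 was at 0, and Slc4a5 was above the floor at 4 h alone (124.3). The 12 microglia markers summed to 8343, 8853, 8022 and 8854 and the 10 endothelial and mural cell markers to 3039, 2935, 3015 and 2135, so neither sum was highest at 4 h. The 7 interneuron markers summed to 14922, 15558, 13089 and 12483, lowest at 6 h as the endothelial and mural cell sum was. The 7 astrocyte markers summed to 52495, 48805, 53009 and 56928, highest at 6 h. The 7 oligodendrocyte markers (15405, 15142, 15829 and 16899) were also highest at 6 h, and the 5 granule cell markers (5330, 6640, 5580 and 5958) at 2 h. The 5 markers of CA field pyramidal and mossy cells summed to 7357, 7109, 8317 and 5952, highest at 4 h and lowest at 6 h as Relb was. Rgs14 (3547.2, 3184.3, 4038.2 and 3159.4), Bok (1584.8, 1862.5, 2081.1 and 1148.7) and Calb2 (1060.4, 1173.3, 1178.8 and 793.4) had these extremes too. Wfs1 (1053.1, 851.9, 929.9 and 766.9) and Pcp4 (111.7, 37, 89.2 and 83.7) were highest at 1 h. The 9 blood cell markers, which include those of lymphocytes, summed to 4696, 2847, 3354 and 4462, mostly the haemoglobin gene Hba-a1. Of the T cell receptor chain genes, Cd3g had all 4 values under the floor and Cd3e read 37.3, 34.1, 44.8 and 26.5. Of the B cell receptor chain genes, Cd79a read 69.9, 70.6, 189.1 and 126.7 and Cd79b 36.8, 21.4, 133.1 and 263, so the first was highest at 4 h and the second at 6 h. The part of these cell types in the 4 h values of Relb, Rel and Nfkbib was not tested.

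A line over the 4 hours was fitted to every probe set past the filter. None of the 6 had a called trend, and 0% of the 6500 tested probe sets did (limma, adjusted p under 0.05). At an unadjusted p under 0.05 there were 136 probe sets, none of them among these 6. Slopes were 0.09 ± 0.06 log2 per h for Nfkbia 101554_at and 0.10 ± 0.08 for Nfkbia 104149_at (SE, n = 4). The slope of Nfkbib was 0.09 ± 0.08, that of Rela −0.03 ± 0.06, that of Relb −0.01 ± 0.12 and that of Nfkb2 −0.02 ± 0.22. All had a limma adjusted p of 0.99995. The 95% interval was −0.04 to 0.23 log2 per h for Nfkbia 101554_at, −0.16 to 0.10 for Rela, −0.28 to 0.26 for Relb and −0.49 to 0.46 for Nfkb2. Each error is moderated: it joins the scatter of the probe set's 4 single arrays about a line with the scatter of other tested probe sets. The first part has 2 residual and the second 9.78 prior degrees of freedom, so the error is not that of the 4 values alone. A peak or dip at 4 h adds to the scatter about the line.

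**Figure D3:**
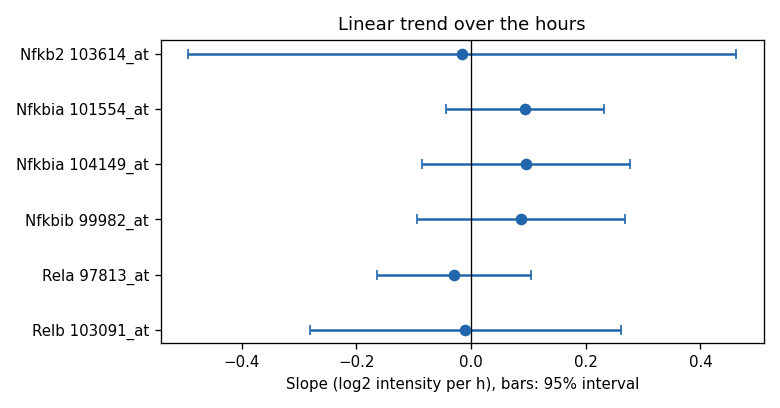
Slope of log2 intensity on the hour for the 6 tested probe sets, with 95% intervals from limma over 4 arrays. Every interval includes 0, and the interval of Nfkb2 is the widest.

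Other genes of the pathway were read from lists of receptors and adaptors, kinases, other inhibitors and feedback regulators, coactivators and degradation factors, and known targets, each gene by its probe set with the highest mean. Of 135 listed genes, 107 had a probe set and 64 were past the filter of a fit with 1 probe set per gene. None had a called trend, and 0% of the 4951 genes in that fit did. Slopes were positive in 35 and negative in 29, with a median of 0.01 log2 per h against 0.00 over all genes. A span over 2-fold was found in 13 of the 64, against 15% of all genes, and, in a count added after seeing the data, in 7 of the 64 without the 4 h array, against 7.61% of all genes. The counts by list below come from 6 to 24 tested genes each, and no list was tested against the share over all genes.

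Among receptors and adaptors, 3 of 11 tested genes spanned over 2-fold, where 15% of all genes did. The TNF receptor gene Tnfrsf1a read, by the probe set used, 92.8, 173.7, 354.3 and 175.1, highest at 4 h, but a second one at 91.8, 135.3, 159.1 and 270, highest at 6 h. Tradd, the adaptor that docks to that receptor, read 180.3, 338.7, 300.9 and 495.2, a slope of 0.23 ± 0.10 (SE, n = 4; limma adjusted p = 0.99993). The 2 genes of the list with the highest means were Tab2 and Cd14. Tab2, an adaptor of the kinase TAK1, read 1884.9, 1689.5, 1378.5 and 2060.4, and the lipopolysaccharide co-receptor gene Cd14 read 578.5, 531.4, 679.6 and 691.5.

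Among kinases, 1 of 6 tested genes spanned over 2-fold, against 15% of all genes. The 1 kinase gene was Ikbkg, the regulatory subunit NEMO of the IkB kinase, at 297.4, 405.2, 200.5 and 333, lowest at 4 h, the hour at which its other probe set was highest (152.1, 252.6, 319.9 and 233.6). The IkB kinase relative Tbk1 read 582.2, 332.3, 555.5 and 424.5. The catalytic subunit of protein kinase A, Prkaca, read 1964.7, 1552.6, 1773.4 and 1980.2. Prkcz, an atypical protein kinase C, was at 1356.8, 1237.8, 1293 and 1366.7 by its brightest probe set, and 2 others read 219.6, 454.4, 575.4 and 513 and 127.5, 47.4, 21.3 and 293.9.

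Among other inhibitors and feedback regulators, 4 of 10 tested genes spanned over 2-fold, against 15% of all genes. The Ras-like IkB-binding gene Nkiras2 read 418.2, 152.8, 404.3 and 256.4, while its relative Nkiras1 read 1842.8, 2037.9, 2256.1 and 2097.1. Pias1, a SUMO ligase that acts on nuclear factors, read 520.4, 415.7, 251.1 and 524.1, and Tnip1, a partner of the deubiquitinase A20, read 695.1, 857.6, 999.2 and 721.3. Other IkB family genes with a probe set were not past the filter. Nfkbie read 71.8, 43.2, 41.3 and 62.9, with its 2 h and 4 h values nearly equal and just above the floor. Nfkbiz read 151.3, 121.2, 77.9 and 120.7, lowest at 4 h. Bcl3, a nuclear IkB protein that works with p52, read 63.2, 71, 117.7 and 80.9, highest at 4 h. Tnfaip3, the gene of A20, which is no IkB protein but a feedback inhibitor, was under the floor at every hour. These 4 were named after their values were seen.

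Among coactivators, degradation factors and cofactors, 0 of 13 tested genes spanned over 2-fold by the probe set used, against 15% of all genes. Btrc, the ubiquitin ligase subunit that recognises marked IkB, read 514.6, 277, 403.6 and 358.3, and a second Btrc probe set spanned far more, at 403.7, 234.9, 53.4 and 168.6. Its ligase partner Skp1 read 2900.1, 2158.8, 1670.7 and 3014.6. Rps3, a ribosomal protein that also joins Rela complexes, read 9083.4, 9399.4, 7010.5 and 7691.9. The lowest value was at 4 h in 6 of the 13, against 29.2% of all genes. It was at 4 h in 2 of 11 receptors and adaptors and 2 of 6 kinases. The other inhibitors had 2 of 10 and the known targets 5 of 24. Over all lists it was at 4 h in 17 of the 64 genes.

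Among known targets, 5 of 24 tested genes spanned over 2-fold, where 15% of all genes did. Lta, the lymphotoxin alpha gene, had the widest span at 348.6, 640.4, 715.5 and 169.4, and a second probe set at 45.6, 37.8, 36.9 and 46.7. Junb, an early-response transcription factor gene, read 378.6, 221.7, 94.5 and 379.2, and by its second probe set 98, 55.4, 44.2 and 48.2. The bright targets were the ferritin heavy chain gene Fth1, at 14179.1, 14643.7, 11474.7 and 12782.5, with a second probe set at 8161.7, 4992.6, 5928.3 and 5738.8, and the neurotrophin gene Bdnf, at 4998, 3748.3, 3753.5 and 3831.4. The interleukin and TNF family genes of the list other than Lta were not past the filter, and are named here after their values were seen. Il1b and Il6 had all 4 values under the floor, and Il1a read 72.1, 131.7, 14.4 and 31.2. Tnf read 138.4, 35.4, 259.2 and 35, and Ltb, the lymphotoxin beta gene, 69.4, 37.8, 249.5 and 39.7, both highest at 4 h.

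**Figure D4:**
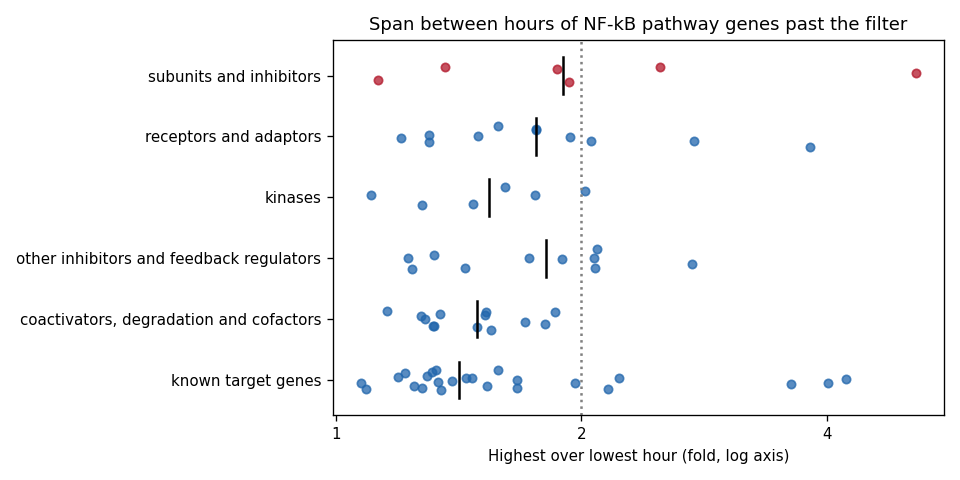
Highest over lowest hour (fold, log axis) for the 6 tested probe sets of subunits and inhibitors (red) and for the tested genes of 5 pathway lists (blue), 1 point each, with the median as a bar and 2-fold as a dotted line. Of the points drawn, Nfkb2 lies furthest right at 5.15-fold, and the list medians lie between 1.41-fold and 1.81-fold. The lists were drawn with the stricter filter of the fit with 1 probe set per gene, which Nfkb2 itself did not pass. The receptor gene Tnfrsf11a, left out by that filter, spanned 5.16-fold, so the place of Nfkb2 depends on the unlike filters.

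The probe sets of other genes whose course was nearest to each of the 6 were found by the distance between centred log2 values over the 4 arrays. Nearest to Relb was Slc35e1, at 120.5, 143.2, 247.5 and 103.8, with a distance of 0.06 log2, and then Clip3 at 0.08. Nearest to Nfkbib were Tead4 (452.3, 495.7, 886 and 571.6; 0.06) and Hdac6 (0.07). Nearest to Nfkb2 were Pick1 (221.3, 289.1, 59 and 330.8; 0.11) and Fgd1 (0.27). Nearest to Rela were Api5 (769, 762.3, 776.1 and 681.7; 0.02) and Des (0.03). For Nfkbia 101554_at they were Nap1l4 (0.03) and Med12 (0.05), and for 104149_at the clock gene Per1 (356.7, 357.9, 299 and 563.7; 0.05) and Ankrd17 (0.08). The 2 Nfkbia probe sets were 0.66 apart, while Nfkbia 101554_at lay 0.54 from Nfkbib and 0.48 from Rela. Relb and Nfkbib were 0.53 apart, and Relb and Nfkb2, the partners of the non-canonical pathway, 2.83 apart, the widest distance between any 2 of these probe sets. With 4 arrays and 6500 probe sets, near courses are found for most shapes, and these distances describe the 4 arrays alone.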

How the data were processed

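The table deposited by the authors holds 1 linear array intensity per probe set and sample. How the arrays were scanned and scaled is not stated in the labels. Values were used as deposited. Of 12488 probe sets, 66 array controls, 1193 without a symbol and 396 with several symbols were left out, and 10817 of the remaining 10833 matched a RefSeq gene (GRCm38.p6) by identifier. A floor was put at the 20th percentile (38.3) before taking log2. The 6500 probe sets with a mean log2 at or above the 40th percentile were tested genome-wide for a linear slope on the hour with limma 3.58.1 in R 4.3.3 (lmFit, eBayes with an intensity trend; 2 residual and 9.78 prior degrees of freedom), with Benjamini-Hochberg adjusted p values called at 0.05. The number of arrays limits the precision, and p values measure only the spread between these arrays, which may be technical.

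All probe sets of the 7 genes are named. In each pathway list the 2 genes with the widest span and the 2 with the highest mean are named, and for each tested probe set the 2 nearest in course. The genes and lists were chosen with earlier results of these data known. Alternatives were a floor at the 30th percentile, an added constant of 32, no filter, array median scaling, quantile normalisation, 1 probe set per gene, no intensity trend, and each array left out in turn.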

Additional observations from a re-analysis of the deposited data

Results flagged for a closer look

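In 8 of the 67 probe sets of the genes named above that were looked at, 1 of the 4 arrays stood apart from the other 3 by more of the range of deposited intensities than the 95% limit of Dixon's test allows, a limit that chance passes in about 1 of 20 groups of 4 and that 5.54% of the 6500 tested probe sets passed. Some of the 67 were named for their course or after their values were seen, so their count cannot be compared with that share. Of the 9 probe sets of NF-kB subunits and inhibitors, 2 passed the limit. Rel 98813_at was high at 4 h, with a gap of 0.863 of its range, and its other 3 values were under the floor. Rela 97813_at was low at 6 h, with a gap of 0.844 of a range that is itself 1.12-fold. Api5, named because its course was nearest to that of Rela, was low at the same hour (0.854). Ttr (0.935), Slc4a5 (0.922) and Ltb (0.851) were high at 4 h, Bdnf was high at 1 h (0.934) and Calb1 was high at 2 h (0.846).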

How the results depend on the processing

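The count of called trends was 0 in each alternative with all 4 arrays and ran from 0 to 18 when 1 array was left out: 18 without 1 h, 3 without 2 h, 0 without 4 h and 2 without 6 h, each from 1 residual degree of freedom. The number of probe sets spanning over 2-fold was 1406, against 3699 without a filter, 741 of 4951 with 1 probe set per gene (15% against 21.6%), and 787 to 1060 with 1 array left out, the lowest without 4 h. No NF-kB probe set was called in any setting. The slope kept its sign in 56 of 64 comparisons. That of Nfkb2 turned from −0.02 log2 per h to 0.025 with the higher floor, 8.42e-05 with the added constant, 0.04 without 1 h, 0.06 without 2 h and 0.10 without 4 h, and was −0.66 without 6 h. The other turns came without 6 h: with 1 array left out, slopes ran from −0.11 without 6 h to 0.15 without 1 h for Nfkbia 104149_at, from −0.036 without 1 h to 0.0015 without 6 h for Rela and from −0.13 without 1 h to 0.37 without 6 h for Relb. Without a change of sign, that of Nfkbib ran from 0.04 without 1 h to 0.33 without 6 h and that of Nfkbia 101554_at from 0.08 without 1 h to 0.14 without 6 h. The cause was not tested. No paired analysis was possible because the samples form 1 group.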
